A study of Mus musculus with 11 samples.

Results

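The cytosolic ribosomal protein genes are the nuclear genes that encode the protein components of the ribosome outside the mitochondria. Members were taken by symbol, as Rpl or Rps followed by a number and at most an a or x, together with Rps3a1, Rplp0, Rplp1, Rplp2 and Rpsa. The rule gave 77 of the 32285 genes in the count table, 46 of the large subunit and 31 of the small subunit. It used no measured value and leaves out pseudogenes, the S6 kinases and -like paralogs. All 77 members passed the filter on low counts, which 15093 genes passed in all, and their raw counts ran from 1189 to 17414 per library.

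The RNA came from isolated pancreatic islets of mice named βZKO_Mip in the labels, described as lacking ZZEF1 in β cells, and of their littermate controls. The mice were 16 weeks old, all had been on a high-fat diet (HFD) for 4 weeks, and at least 3 mice of a genotype went into each sample. The islets were then kept for 24 h with azoramide, a compound known to increase the folding capacity of the endoplasmic reticulum, at 10 µM, or with DMSO, its solvent, for which the series text also gives 10 µM. There were 3 libraries labelled knockout with azoramide, 2 labelled knockout with DMSO, 3 control libraries with azoramide and 3 control libraries with DMSO. The promoter behind the name Mip is not spelled out in the labels, and nothing in the labels says whether any mouse gave islets to more than 1 sample, so p-values measure the spread between these pooled samples. Whole islets hold several cell types, so fewer cells of a type and less RNA per cell cannot be told apart.

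Ribosomal proteins are made in near equal amounts and assembled with ribosomal RNA in the nucleolus, so their genes are usually expressed together. Their mRNAs are short and abundant, and most begin with a C followed by a run of pyrimidines, the 5′ terminal oligopyrimidine (TOP) motif, through which the kinase mTOR and the RNA-binding protein LARP1 set their translation and stability. In β cells, ribosomes on the endoplasmic reticulum make proinsulin, the precursor of insulin.

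Library totals ran from 16832800 to 19501813 counts. Zzef1, the gene named by the labels, had 72.1, 77.7 and 68.7 CPM (counts per 1000000 after TMM scaling of the library totals) in libraries labelled knockout with azoramide and 79.4 and 83.5 CPM in those with DMSO. In control libraries it had 68.1, 64.3 and 67.4 CPM with azoramide and 85.4, 109.7 and 96.5 CPM with DMSO. Its level did not mark the libraries labelled knockout, with a log2 difference from control of 0.13 with azoramide (edgeR adjusted p = 0.968) and -0.26 with DMSO (adjusted p = 0.999). The exons removed are not stated in the labels, and a count over the whole gene need not show the loss of a few exons, so these libraries are called labelled knockout and every genotype direction rests on the label. Library 2 of the DMSO controls and library 3 of the labelled knockouts with azoramide stood furthest apart from their groups. Their chi-square per degree of freedom against the other libraries of the group ran from 14.6 to 23.5, against 6.22 and 6.75 between those others. Library 2 of the azoramide controls stood apart too, at 14.2 and 9.50, against 5.43 between the others of its group. Results were computed with and without the 2 libraries furthest apart, and without each library in turn. The defining islet markers were abundant in every library: summed β cell markers were at or above 128342 CPM and summed α cell markers at or above 14319 CPM. Transcripts of mitochondrially encoded genes took 7.60% to 7.98% of counts with azoramide and 5.17% to 5.19% with DMSO in labelled knockout islets, against 7.16% to 8.51% with azoramide and 5.38% to 5.50% with DMSO in control islets.

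Promoter windows are shown for some members that moved most, least or typically. They were chosen for display and are not a sample of the family. The share with the start motif is counted further below over all matched members. RefSeq promoters of GRCm38.p6 were matched for 57 of the 77 members. Each window below starts 40 bases before the annotated start of transcription and ends 20 bases into the transcript, written 5′ to 3′ on the gene's strand. Capitals mark a C at the start and the unbroken run of pyrimidines (C or T) that follows it. The windows lie at chr11:114668540-114668599 on the plus strand for Rpl38, chr16:33056442-33056501 on the plus strand for Rpl35a, chr4:86857348-86857407 on the minus strand for Rps6, chr3:90213629-90213688 on the minus strand for Rps27, chr7:141447611-141447670 on the plus strand for Rplp2, chr5:115559427-115559486 on the plus strand for Rplp0 and chrX:37085203-37085262 on the minus strand for Rpl39. Rpl38, Rpl35a, Rps6 and Rps27 carry the capital run and rose with azoramide, Rplp2 carries it and moved least, and Rplp0 and Rpl39 have no such run at the RefSeq start. Rpl35a also has RefSeq starts at chr16:33056453 and chr16:33056514, whose windows hold no capitals.
Rpl38: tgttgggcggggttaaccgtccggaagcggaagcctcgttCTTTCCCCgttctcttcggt
Rpl35a: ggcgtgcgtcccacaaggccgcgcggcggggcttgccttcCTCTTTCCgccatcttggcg
Rps6: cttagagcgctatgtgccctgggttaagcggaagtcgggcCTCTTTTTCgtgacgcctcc
Rps27: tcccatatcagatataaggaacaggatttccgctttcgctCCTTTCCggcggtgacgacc
Rplp2: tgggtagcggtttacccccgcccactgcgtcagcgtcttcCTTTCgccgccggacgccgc
Rplp0: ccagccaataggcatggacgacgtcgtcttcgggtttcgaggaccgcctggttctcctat
Rpl39: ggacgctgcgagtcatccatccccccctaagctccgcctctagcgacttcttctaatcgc

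A C at the start followed by at least 4 pyrimidines was found for 13 of the 57 members (22.8%) and for 813 of 27025 genes with RefSeq promoters (3.01%). Here and below, a gene with several promoters was counted once if any of them matched. The run of the TOP consensus depends on an exact start, and RefSeq starts can lie some bases from the start used in islets, so a window without capitals says only that this run is not at that position. The letters CTTTCC lay within 20 bases of the start in 17.5% of the members and 2.30% of those genes, read on the transcript's strand only. In the whole promoter of the table, from 250 bases before to 50 after the start and on both strands, CCGGAAG, letters that ETS family factors such as GABP are known to bind, was present in 42.1% of the members and 9.93% of all genes with promoters. AAGATGG, the core of the YY1 site, was present in 15.8% and 7.28%. GGGCGG, the GC box, was present in 61.4% and 38.2%, CACGTG, the E-box that MYC binds, in 10.5% and 8.09%, and TATAAA in 10.5% and 15.7%. The motifs were searched separately, and matches may overlap each other. Members with the start motif had a median log2 fold change of 0.87 with azoramide in labelled knockout islets and 0.90 in control islets, and the other matched members 0.84 and 0.86. These shares describe letters in a window, not binding.

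With azoramide, ribosomal protein transcripts took up a larger share of the islet transcriptome in both genotypes. In libraries labelled knockout, the 77 members together held 2.86%, 2.96% and 2.77% of all counts with azoramide, against 1.81% and 1.82% with DMSO. In control islets they held 3.00%, 3.04% and 2.94% with azoramide, against 1.87%, 1.93% and 1.83% with DMSO. No azoramide library overlapped a DMSO library in either genotype. The log2 difference of the mean shares was 0.66 in labelled knockout islets and 0.68 in control islets, computed without a test. Wilson 95% intervals of single libraries, which cover counting error only, were far narrower than these differences, at 2.85% to 2.87% for the first labelled knockout azoramide library.

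Both subunits moved together. The large subunit held 1.77 ± 0.06% of counts with azoramide and 1.13 ± 0.005% with DMSO in libraries labelled knockout (SD, n = 3 and 2), and 1.85 ± 0.03% against 1.17 ± 0.03% in control islets (SD, n = 3 each). The small subunit held 1.09 ± 0.04% with azoramide and 0.689 ± 0.001% with DMSO in libraries labelled knockout (SD, n = 3 and 2), and 1.15 ± 0.02% against 0.710 ± 0.018% in control islets (SD, n = 3 each). The ratio of large to small subunit counts stayed between 1.60 and 1.65 in all 11 libraries: it was 1.61 with azoramide and 1.64 with DMSO on average in each genotype. Without Rplp0, Rpl10 and Rpl4, the 3 members with the most counts, the log2 difference of the shares was 0.66 in labelled knockout and 0.68 in control islets.

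**Figure D1:**
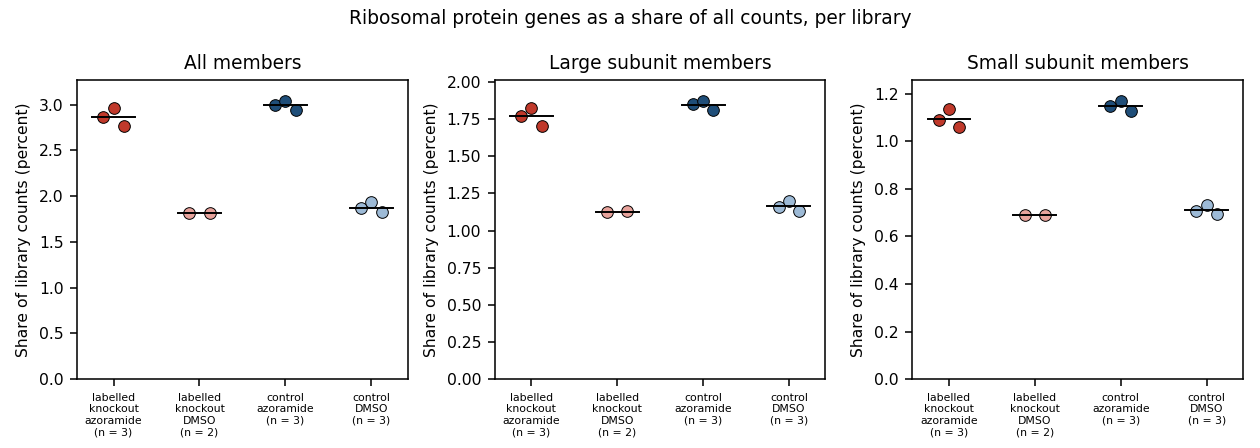
Share of all counts in each library held by the 77 ribosomal protein genes (left), the 46 large subunit genes (middle) and the 31 small subunit genes (right), in percent; points are libraries and bars are group means. In every panel all azoramide libraries lie above all DMSO libraries of the same genotype, with total shares of 2.77% to 3.04% against 1.81% to 1.93%.

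Whether azoramide changed single members was tested gene by gene with edgeR over all 15093 genes. In libraries labelled knockout, 76 members rose, none fell and Rplp2 alone was not called, at an adjusted p threshold of 0.05. Over all genes tested, 19.97% were called higher and 19.8% lower. In control islets all 77 members rose and none fell, where 19.3% of all genes were called higher and 19.8% lower. The median log2 fold change of the members was 0.84 in labelled knockout islets, a fold of 1.79, with the middle quartiles of the members between 0.76 and 0.89. In control islets it was 0.87, a fold of 1.83, with the middle quartiles between 0.79 and 0.94. The median over all genes was -0.003 in labelled knockout and -0.02 in control islets.

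Of all genes tested, 6.03% in labelled knockout islets and 3.17% in control islets lay above the member median. The azoramide libraries lay wholly above the DMSO libraries for 77 of 77 members in labelled knockout islets, where 30.2% of all genes did so, and for 76 of 77 in control islets, where 23.8% of all genes did so. DESeq2's Wald test called 76 members in labelled knockout and 77 in control islets. Of the 21644 genes it tested, it called 3008 higher and 2825 lower in labelled knockout islets, and 2894 and 2834 in control islets. With plain library totals in place of TMM scaling, the median over all genes was -0.16 in labelled knockout and -0.19 in control islets and the member median was 0.68 and 0.70. Under that scaling 1866 genes were called higher and 4542 lower in labelled knockout islets, against 3014 and 2992 with TMM, and 1628 higher and 4943 lower in control islets, against 2908 and 2985 with TMM.

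**Figure D2:**
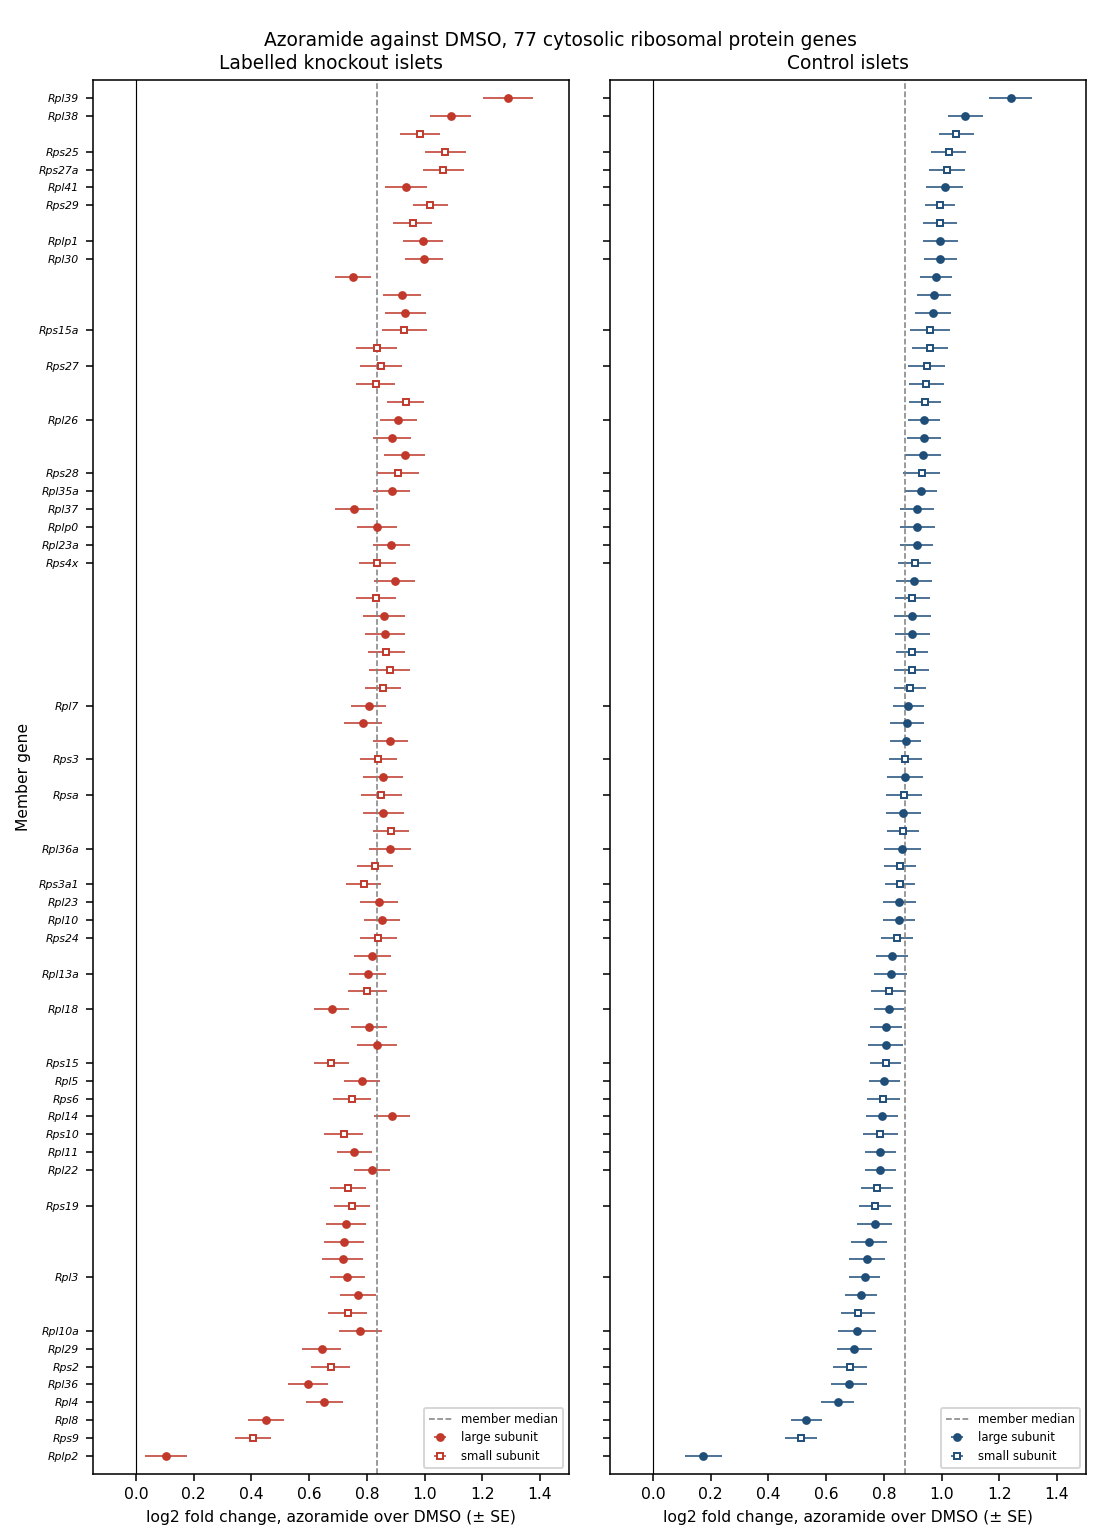
Log2 fold change of azoramide over DMSO for each of the 77 members (rows, ordered by the control value), with its standard error, in labelled knockout islets (left) and control islets (right); filled circles are large subunit genes, open squares small subunit genes, and dashed lines the member medians of 0.84 and 0.87. Row labels are given for the members named in the text. Rpl39 stands at the top of both panels and Rplp2, Rps9 and Rpl8 at the bottom.

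Among large subunit genes, Rpl39 rose most. It encodes one of the smallest ribosomal proteins, set in the wall of the tunnel through which the new peptide leaves (ENSMUSG00000079641, GRCm38 chrX:37082520-37085402, minus strand). In labelled knockout islets, Rpl39 stood at 177, 181 and 151 CPM with azoramide and at 68.5 and 70.4 CPM with DMSO. Its values in control islets were 175, 167 and 171 CPM with azoramide and 73.6, 77.5 and 66.0 CPM with DMSO. The groups were far apart, and the log2 fold change was 1.29 (SE 0.09, edgeR adjusted p = 3.71e-08) in labelled knockout islets and 1.24 (SE 0.07, adjusted p = 4.31e-09) in control islets. Rpl38, known in mouse embryos for its part in the translation of Hox mRNAs, came next. Rpl38 had 245, 254 and 229 CPM with azoramide and 115 and 113 CPM with DMSO in libraries labelled knockout. Control libraries had 274, 258 and 255 CPM with azoramide and 125, 129.8 and 117 CPM with DMSO. These groups did not overlap either, with log2 fold changes of 1.09 (SE 0.07, edgeR adjusted p = 3.71e-08) in labelled knockout islets and 1.08 (SE 0.06, adjusted p = 4.31e-09) in control islets. Rpl41, which encodes a very short peptide at the interface of the subunits, had log2 fold changes of 0.94 in labelled knockout islets and 1.01 in control islets, and Rpl30, which also takes part in selenocysteine insertion, had 0.998 in labelled knockout islets and 0.995 in control islets.

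Several members rose less than the median. Rpl8, whose protein lies beside the peptidyl transferase centre, was the lowest of the large subunit after Rplp2. The libraries labelled knockout gave 455, 469.6 and 466 CPM of Rpl8 with azoramide and 337 and 341 CPM with DMSO. Those of control islets gave 506, 505 and 496 CPM with azoramide and 355, 362 and 326 CPM with DMSO. Here too no azoramide library overlapped a DMSO library. The log2 fold change of Rpl8 was 0.45 (SE 0.06, edgeR adjusted p = 2.05e-05) in labelled knockout islets and 0.53 (SE 0.05, adjusted p = 9.87e-07) in control islets. Rpl4, which lines the exit tunnel, had log2 fold changes of 0.65 in labelled knockout islets and 0.64 in control islets, Rpl3, which reaches towards the peptidyl transferase centre, 0.73 in labelled knockout islets and 0.73 in control islets, Rpl29, also known as a heparin-binding protein, 0.64 in labelled knockout islets and 0.70 in control islets, and Rpl36 0.60 in labelled knockout islets and 0.68 in control islets. All of these were called higher in both genotypes, and no test set these genes against the others.

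Rpl5 and Rpl11, whose proteins travel with 5S rRNA and bind MDM2 when ribosome assembly fails, lay a little below the median of the family. Rpl5 had log2 fold changes of 0.78 in labelled knockout islets and 0.80 in control islets, and Rpl11 0.76 in labelled knockout islets and 0.79 in control islets. Rpl10, the X-linked gene of a protein that joins the large subunit late in its maturation, had 0.85 in labelled knockout islets and 0.85 in control islets. Rpl10a, of the L1 stalk at the exit site for tRNA, had 0.78 in labelled knockout islets and 0.71 in control islets. Rpl13a, known in human and mouse myeloid cells as a translational repressor outside the ribosome, had 0.80 in labelled knockout islets and 0.82 in control islets. Rpl23a, at the docking site of the signal recognition particle, had 0.88 in labelled knockout islets and 0.91 in control islets. Rpl22, whose loss mice survive with a defect in T cells, had 0.82 in labelled knockout islets and 0.79 in control islets. Each of these 7 genes was called higher in both genotypes.

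All 31 small subunit genes rose in both genotypes, with a median log2 fold change of 0.84 in labelled knockout islets and 0.89 in control islets. Rps25, known for its part in initiation at viral internal ribosome entry sites, and Rps27a, made as a fusion with ubiquitin, were at the upper end in labelled knockout islets. Levels of Rps27a were 409.9, 428 and 381 CPM with azoramide and 195 and 194 CPM with DMSO in labelled knockout islets. They were 463, 428 and 425 CPM with azoramide and 216, 227 and 207 CPM with DMSO in control islets. The Rps27a groups were separated in both genotypes, and its log2 fold change was 1.07 (SE 0.07, edgeR adjusted p = 3.71e-08) in labelled knockout islets and 1.02 (SE 0.06, adjusted p = 4.31e-09) in control islets. Rps25 had log2 fold changes of 1.07 in labelled knockout islets and 1.02 in control islets, and Rps29, one of the genes mutated in human Diamond-Blackfan anaemia, 1.02 in labelled knockout islets and 0.995 in control islets. Annotated exons of Rps25 overlap exons of Trappc4 and Ccdc84 on the opposite strand, which averaged 32.8 and 19.8 CPM. In all, 18 members overlap an exon of some other gene of the count table. Whether the counts were made by strand is not given in the sources used here.

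Rps9, a protein of the mRNA entry and decoding region, rose least in the small subunit. In labelled knockout islets, Rps9 stood at 278, 284 and 266 CPM with azoramide and at 211 and 206 CPM with DMSO. Its values in control islets were 302, 316 and 293 CPM with azoramide and 209, 222 and 207 CPM with DMSO. The groups did not overlap, and the log2 fold change of Rps9 was 0.41 (SE 0.06, edgeR adjusted p = 7.52e-05) in labelled knockout islets and 0.51 (SE 0.06, adjusted p = 2.1e-06) in control islets. In labelled knockout islets its call ended with the length of the main transcript as an offset (0.11, edgeR adjusted p = 0.222), and its adjusted p ran from 1.07e-09 to 0.222 over the alternatives. Rps2, its neighbour at the mRNA entry, had 0.67 in labelled knockout islets and 0.68 in control islets. Rps6, the substrate of the S6 kinases downstream of mTOR, had 0.75 in labelled knockout islets and 0.80 in control islets, and Rps3, at the entry channel and active in DNA repair, 0.84 in labelled knockout islets and 0.87 in control islets. Rps10, one of the proteins that ZNF598 marks with ubiquitin on collided ribosomes in human cells, had 0.72 in labelled knockout islets and 0.79 in control islets. Rps19, the gene most often mutated in Diamond-Blackfan anaemia, had 0.75 in labelled knockout islets and 0.77 in control islets, and Rps28 0.91 in labelled knockout islets and 0.93 in control islets. Rps4x, which is X-linked, had 0.84 in labelled knockout islets and 0.91 in control islets, and Rpsa, also known as a laminin receptor, 0.85 in labelled knockout islets and 0.87 in control islets.

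Within the P stalk, Rplp0 and Rplp1 rose and Rplp2 moved least of all members. The stalk is the lateral arm of the large subunit that recruits and activates elongation factors, built of Rplp0 and of paired Rplp1 and Rplp2 proteins. Rplp1 had 328, 329 and 335 CPM with azoramide and 161 and 170.4 CPM with DMSO in libraries labelled knockout. Control libraries had 339, 349 and 376 CPM with azoramide and 175, 190.4 and 168 CPM with DMSO. Every azoramide library was higher, and the log2 fold change of Rplp1 was 0.995 (SE 0.07, edgeR adjusted p = 5.37e-08) in labelled knockout islets and 0.995 (SE 0.06, adjusted p = 4.95e-09) in control islets. Rplp0, the base of the stalk, had log2 fold changes of 0.84 in labelled knockout islets and 0.92 in control islets.

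Rplp2 (ENSMUSG00000025508, GRCm38 chr7:141447370-141451585, plus strand) was close to its DMSO level. The libraries labelled knockout gave 122, 125 and 129.8 CPM of Rplp2 with azoramide and 112 and 122 CPM with DMSO. Those of control islets gave 127, 137 and 131 CPM with azoramide and 114, 127 and 108 CPM with DMSO. In labelled knockout islets the lowest azoramide library lay just above the higher DMSO library, and in control islets the treatments overlapped. Its log2 fold change was 0.10 in labelled knockout islets (SE 0.07, edgeR adjusted p = 0.283) and 0.17 in control islets (SE 0.07, adjusted p = 0.0433). Per count of Rplp1 there were 0.380 ± 0.007 counts of Rplp2 with azoramide and 0.705 ± 0.016 with DMSO in labelled knockout islets (SD, n = 3 and 2), and 0.371 ± 0.022 against 0.654 ± 0.014 in control islets (SD, n = 3 each). The ratio was thus lower in every azoramide library, and as a ratio within a library it does not depend on scaling. It is given without a test. The edgeR call for Rplp2 in control islets was lost in 14 of the 24 alternatives, among them plain library totals (0.01) and each correction for length and GC content. With edgeR it stood at 0.12 when DMSO control 3 was left out (adjusted p = 0.171) and at 0.15 when azoramide control 2 was (adjusted p = 0.145), and its adjusted p ran from 0.00139 to 0.929 over the alternatives.

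**Figure D3:**
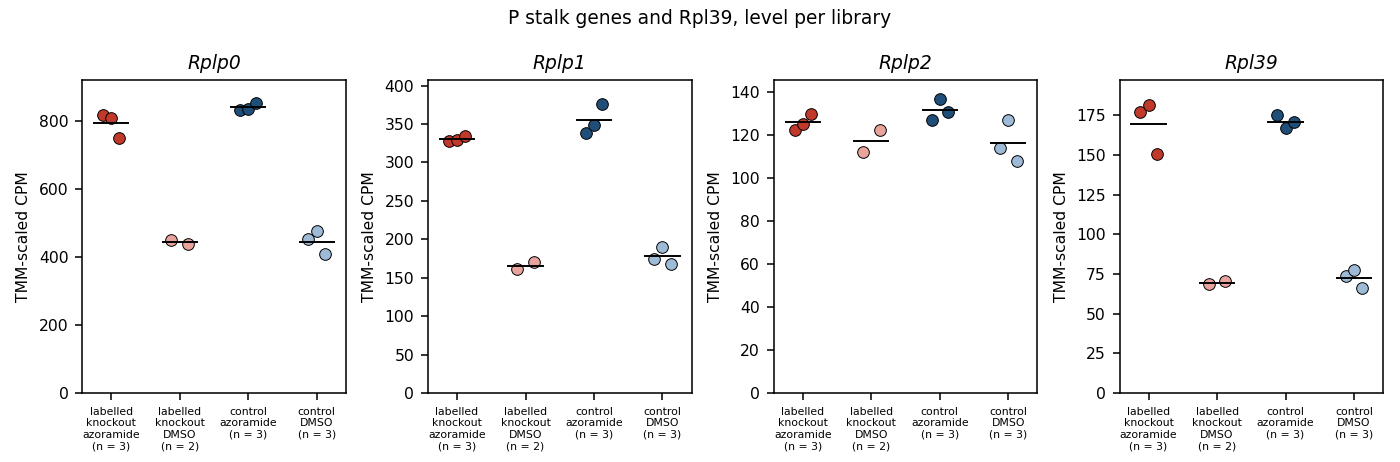
Level (TMM-scaled CPM) of the P stalk genes Rplp0, Rplp1 and Rplp2 and of Rpl39 in each library; points are libraries and bars group means. Rplp0, Rplp1 and Rpl39 lie higher in every azoramide library, while Rplp2 lies between 108 and 137 CPM in all 4 groups.

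The ranges that follow leave aside the members described individually and those named by the rules but not reported here. The other 21 genes of the large subunit had log2 fold changes of 0.72 to 0.93 in labelled knockout islets and 0.72 to 0.97 in control islets. For the other 14 genes of the small subunit the ranges were 0.73 to 0.96 in labelled knockout islets and 0.71 to 0.995 in control islets. All of these genes were called higher by edgeR in both genotypes. The 4 X-linked members, Rpl10, Rpl36a, Rpl39 and Rps4x, all rose, with medians of 0.87 in labelled knockout and 0.89 in control islets.

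The members differed widely in level. On the scale of CPM per kilobase of coding sequence, which allows genes to be compared, Rpl41 was highest in every group. It averaged 8317 with azoramide and 4348 with DMSO in labelled knockout islets, and 9152 against 4539 in control islets. Rps24 came second in every group, at 1781 against 995.6 in labelled knockout and 1875 against 1043 in control islets. The median member stood at 715 with azoramide and 413 with DMSO in labelled knockout islets, and at 776 against 434 in control islets. Rpl22 was lowest in all 4 groups, at 309 with azoramide and 175 with DMSO in labelled knockout islets and 329 against 191 in control islets. Rplp2 was not among the 5 lowest with DMSO and ranked just above Rpl22 with azoramide. Very short coding sequences such as that of Rpl41 make this scale sensitive to reads from untranslated regions.

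The size of the change went with coding length within the family and with transcript length outside it. Among the 77 members, Spearman's rho between the log2 fold change and coding length was -0.48 in labelled knockout and -0.51 in control islets. With the length of all annotated exons it was weaker, at -0.22 in labelled knockout and -0.21 in control islets. The 25 members with under 400 bases of coding sequence had a median log2 fold change of 0.89 in labelled knockout islets and 0.94 in control islets, and the 22 members with 600 bases or more had 0.79 and 0.80. Among other genes, those with a main transcript under 1000 bases had a median of 0.49 in labelled knockout and 0.45 in control islets (1063 genes), those of 2000 to 4000 bases -0.01 and -0.02 (6096 genes), and those over 8000 bases -0.25 and -0.29 (735 genes). By main transcript the members differed little. The 49 under 1000 bases stood at 0.85 and 0.89, the 23 of 1000 to 2000 bases at 0.84 and 0.87, and the 4 of 2000 to 4000 bases at 0.80 and 0.81. Rps15a, annotated with a main transcript of 5179 bases and a coding sequence of 390 bases, had log2 fold changes of 0.93 in labelled knockout islets and 0.96 in control islets.

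With library-specific offsets fitted to exon length and GC content, the member median was 0.63 in labelled knockout and 0.65 in control islets, and 76 members were called higher in each. With the length of the main transcript in that offset, chosen after the data were seen, it was 0.48 and 0.51, with 75 and 76 called. The mitochondrial share given above moved with azoramide too, and with mitochondrially encoded genes left out of the totals the log2 difference of the ribosomal share was 0.70 in labelled knockout and 0.71 in control islets. Malat1, a long non-coding RNA kept in the nucleus, stood at 1276 to 1510.2 CPM with azoramide and 1561 to 1595 CPM with DMSO in labelled knockout islets, and at 1073 to 1109 CPM against 1268 to 1544 CPM in control islets, lower with azoramide and without overlap in both. Its part in the result was not tested.

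**Figure D4:**
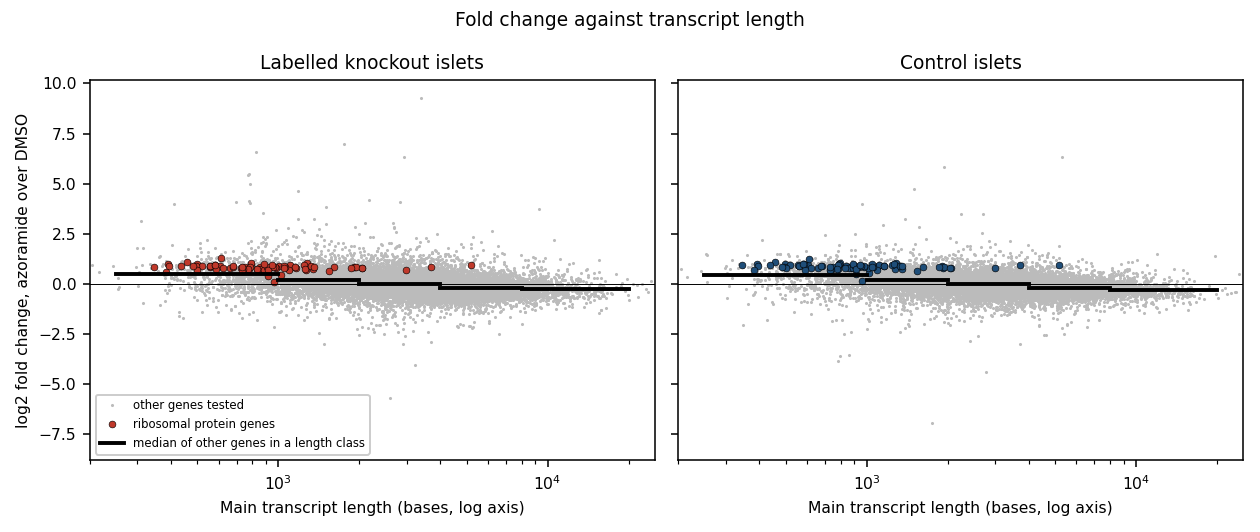
Log2 fold change of azoramide over DMSO (vertical) against the length of the main annotated transcript in bases (horizontal, log axis) for all genes tested with a length, in labelled knockout islets (left) and control islets (right). Coloured points are the ribosomal protein genes, grey points other genes, and black bars the medians of other genes in 5 length classes, which fall from 0.49 and 0.45 under 1000 bases to -0.25 and -0.29 over 8000 bases.

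No member passed the test between genotypes, in either treatment. With azoramide, 0 of 77 members were called in libraries labelled knockout against control by edgeR (0.0% of all genes), and with DMSO 0 of 77 (0.0% of all genes). At an unadjusted p under 0.05 there were 30 members with azoramide and 6 with DMSO, all lower in libraries labelled knockout, against 754 and 531 of all 15093 genes. DESeq2 called none of the members in either comparison. Of the 21644 genes it tested, it called 1 higher and 1 lower with azoramide, and 0 higher and 3 lower with DMSO. With azoramide all 77 values were negative, with a median log2 difference of -0.11 (range -0.23 to -0.01), and with DMSO 74 were, with a median of -0.08 (range -0.18 to 0.01). The 95% intervals of single members ran from -0.34 to 0.14 with azoramide and from -0.33 to 0.16 with DMSO. All members share the same libraries and scaling, so their common sign is not 77 separate observations. With the exon length and GC offset the member median was -0.08 with azoramide and -0.04 with DMSO. With the main transcript's length in the offset it was -0.07 and -0.02. With azoramide, 13 and 8 members then had an unadjusted edgeR p under 0.05, against 633 and 638 of all genes. Other genes with a main transcript under 1000 bases had medians of -0.05 with azoramide and -0.06 with DMSO. The part of length in this difference was not tested.

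The libraries labelled knockout lay wholly below the controls for 56 of 77 members with azoramide, where 5.58% of all genes did so, and for 31 of 77 with DMSO, where 9.57% of all genes did so. When both libraries that stood furthest apart were left out, 1 member was called with azoramide, where edgeR called 49 genes higher and 35 lower of the 14962 tested in that setting. Rpl18 (-0.17), Rps27 (-0.20) and Rpl26 (-0.17) were among the 4 members of smallest p with azoramide, none of them called. With DMSO the 4 were Rpl14 (-0.16), Rpl36a (-0.18), Rps27a (-0.16) and Rpl26 (-0.14), also not called. Exons of Rpl18 overlap Sphk2 on the opposite strand. The azoramide change was 0.85 in labelled knockout islets and 0.95 in control islets for Rps27, 0.91 in labelled knockout islets and 0.94 in control islets for Rpl26, 0.89 in labelled knockout islets and 0.79 in control islets for Rpl14, and 0.88 in labelled knockout islets and 0.86 in control islets for Rpl36a, each called higher in both. The DMSO median moved to -0.04 without control DMSO library 2, in which 70 of 77 members lay above their group mean, and to -0.11 without control DMSO library 3, in which 68 lay below.

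The response to azoramide was next compared between genotypes with the interaction term, the fold change in labelled knockout islets less that in control islets. It was called for 0 of 77 members by edgeR and by DESeq2 (0.0% of all genes in edgeR, 0 of 21644 in DESeq2). In edgeR, 1 member and 563 of all genes had an unadjusted p under 0.05. The median was -0.03 and the range -0.23 to 0.10, and without control DMSO library 3 the median was 0.01. Rpl37 (-0.16), Rpl18 (-0.14) and Rps15 (-0.13) were among the 4 of smallest p, and none was called. Azoramide changed Rpl37 by 0.76 in labelled knockout islets and 0.92 in control islets, Rpl18 by 0.68 in labelled knockout islets and 0.82 in control islets and Rps15 by 0.68 in labelled knockout islets and 0.81 in control islets, all called higher in both. Intervals of single members ran from -0.40 to 0.28. The 2 azoramide comparisons share no libraries, and both values of each member are given side by side above.

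Genes close to the family but outside the rule moved in the same direction. Of 13 such genes, 8 were tested, and Rpl3l, Rpl10l, Rpl26l1, Rpl39l and Rps4l were not. All 8 were called higher in both genotypes, where 19.97% of all genes were in labelled knockout and 19.3% in control islets. Their medians were 0.84 in labelled knockout and 0.87 in control islets. Fau, a ubiquitin-like fusion with a small subunit protein, had log2 fold changes of 0.83 in labelled knockout islets and 0.84 in control islets. Rps27l, a paralog of Rps27 known as a p53 target, had 0.96 in labelled knockout islets and 1.11 in control islets, Rpl36al, a paralog of Rpl36a, 0.82 in labelled knockout islets and 0.78 in control islets, and Rpl22l1, a paralog of Rpl22, 1.28 in labelled knockout islets and 1.08 in control islets. Rpl7l1, a paralog of Rpl7 that acts in ribosome assembly, had lower values of 0.41 in labelled knockout islets and 0.40 in control islets. Near copies such as Rps27rt, and processed pseudogenes such as Rpl10-ps3 at 11.1 CPM, may share reads with members. Per count of Rpl7 there were 0.169 ± 0.005 counts of Rpl7l1 with azoramide and 0.223 ± 0.007 with DMSO in labelled knockout islets (SD, n = 3 and 2), and 0.153 ± 0.008 against 0.215 ± 0.019 in control islets (SD, n = 3 each), without overlap of the treatments. Per count of Rpl22, Rpl22l1 stood at 0.818 ± 0.106 against 0.593 ± 0.018 in labelled knockout islets and at 0.761 ± 0.167 against 0.624 ± 0.089 in control islets, where the treatments overlapped. The counting rule for reads shared between copies is not given in the sources used here.

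Other mRNAs known to carry the TOP motif rose as well. Of 25 tested, 19 rose and 2 fell in labelled knockout islets, and 20 rose and none fell in control islets, with a median log2 fold change of 0.58 in both. Shares over all genes were 19.97% higher and 19.8% lower in labelled knockout islets, and 19.3% and 19.8% in control islets. Eef1b2, an exchange factor for elongation factor 1, had 0.80 in labelled knockout islets and 0.82 in control islets, Tpt1, the translationally controlled tumour protein, 0.70 in labelled knockout islets and 0.70 in control islets, and Eif3e, an initiation factor subunit, 0.76 in labelled knockout islets and 0.73 in control islets. Npm1, the nucleolar protein nucleophosmin, had 0.86 in labelled knockout islets and 0.74 in control islets. Eif3f fell in labelled knockout islets (-0.33) and was not called in control islets (-0.17). Eef2, the translocation factor, likewise fell in labelled knockout islets (-0.20) and was not called in control islets (-0.06). Whether the genotypes differ for Eif3f and Eef2 was covered by the interaction term, which called no gene.

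Among the few genes of TOP and mTOR control, more were called lower than higher. Of 16 tested, 2 rose and 6 fell in labelled knockout islets, and 2 rose and 8 fell in control islets, with medians of -0.16 in labelled knockout and -0.32 in control islets. Shares over all genes were 19.97% higher and 19.8% lower in labelled knockout islets, and 19.3% and 19.8% in control islets. Whether so short a list departs from those shares was not tested. Larp1, which binds TOP mRNAs, stood at 123, 123 and 136 CPM with azoramide and 192 and 197 CPM with DMSO in labelled knockout islets. In control islets Larp1 stood at 132, 129.7 and 118 CPM with azoramide and 184, 164 and 190.4 CPM with DMSO. Every azoramide library was lower, with log2 fold changes of -0.61 (SE 0.08, edgeR adjusted p = 8.99e-06) in labelled knockout islets and -0.50 (SE 0.07, adjusted p = 2.13e-05) in control islets. Mtor itself had -0.47 in labelled knockout islets and -0.39 in control islets, Tsc2, an inhibitor of the pathway, -0.56 in labelled knockout islets and -0.44 in control islets, and Eif4ebp2, a repressor of cap-dependent initiation, -0.69 in labelled knockout islets and -0.49 in control islets. Rheb, the small GTPase that activates mTOR complex 1, rose (0.79 in labelled knockout islets and 0.64 in control islets), as did Eif4ebp1 (0.58 in labelled knockout islets and 0.43 in control islets). With either length and GC offset, 5 rather than 10 of these genes were called in control islets.

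Ribosome biogenesis genes mostly rose. Of 61 tested, 41 rose and 2 fell in each genotype, with medians of 0.40 in labelled knockout and 0.33 in control islets. Shares over all genes were 19.97% higher and 19.8% lower in labelled knockout islets, and 19.3% and 19.8% in control islets. Nhp2, a protein of the box H/ACA particles that modify rRNA, stood at 21.2, 21.4 and 19.4 CPM with azoramide and 9.49 and 9.83 CPM with DMSO in labelled knockout islets. In control islets Nhp2 stood at 22.8, 21.8 and 22.2 CPM with azoramide and 10.4, 11.4 and 12.3 CPM with DMSO. The groups did not overlap, with log2 fold changes of 1.10 in labelled knockout islets and 0.97 in control islets. Nmd3, the export adapter of the large subunit, had 0.86 in labelled knockout islets and 0.71 in control islets, Mphosph10, of the early small subunit processome, 0.69 in labelled knockout islets and 0.56 in control islets, and Imp3, of the same complex, 0.67 in labelled knockout islets and 0.64 in control islets. Polr1a, the largest subunit of RNA polymerase I, fell in labelled knockout islets (-0.36) and was not called in control islets (-0.27). Ubtf, which activates rRNA genes, likewise fell in labelled knockout islets (-0.30) and was not called in control islets (-0.09). In control islets the 2 that fell were Rrp1b (-0.35) and Mdn1 (-0.28).

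Chaperones and importins of ribosomal proteins were mixed, with 5 of 12 higher and 1 lower in each genotype. Shares over all genes were 19.97% higher and 19.8% lower in labelled knockout islets, and 19.3% and 19.8% in control islets. The short lists of this paragraph were not tested against those shares. Ipo9, an importin, was the one that fell (-0.24 in labelled knockout islets and -0.22 in control islets). Ipo5, which carries ribosomal proteins into the nucleus, had log2 fold changes of 0.52 in labelled knockout islets and 0.48 in control islets. Ipo7, of the same function, had 0.51 in labelled knockout islets and 0.37 in control islets. Bccip, whose yeast relative is a chaperone of Rpl23, had 0.53 in labelled knockout islets and 0.47 in control islets, and Ltv1, known from yeast to hold Rps3 during assembly, 0.57 in labelled knockout islets and 0.51 in control islets. Of 12 nucleolar stress and p53 target genes, 2 rose and 4 fell in each genotype. Ccng1, which encodes cyclin G1 (0.46 in labelled knockout islets and 0.51 in control islets), and the pro-apoptotic Bax (0.28 in labelled knockout islets and 0.32 in control islets) rose. Bbc3, which encodes PUMA (-0.84 in labelled knockout islets and -0.63 in control islets), Zmat3 (-0.51 in labelled knockout islets and -0.46 in control islets) and Sesn2 (-0.52 in labelled knockout islets and -0.44 in control islets) fell, with Trp53 in labelled knockout islets (-0.36) and Mdm4 in control islets (-0.22), while Cdkn1a, the p53 target that encodes p21, was not called (0.27 in labelled knockout islets and -0.12 in control islets). Of 12 ribosome rescue and quality control genes tested, 5 rose and 1 fell in labelled knockout islets and 4 rose and 2 fell in control islets. Znf598 of that list was not tested. Abce1, which splits ribosomes for recycling, had 0.56 in labelled knockout islets and 0.49 in control islets, Edf1, a sensor of collided ribosomes, 0.44 in labelled knockout islets and 0.44 in control islets, Ascc3, which separates collided ribosomes, 0.28 in labelled knockout islets and 0.25 in control islets, and Gtpbp1 -0.50 in labelled knockout islets and -0.54 in control islets. In the genotype comparisons and the interaction no gene of any of these lists was called by edgeR.

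**Figure D5:**
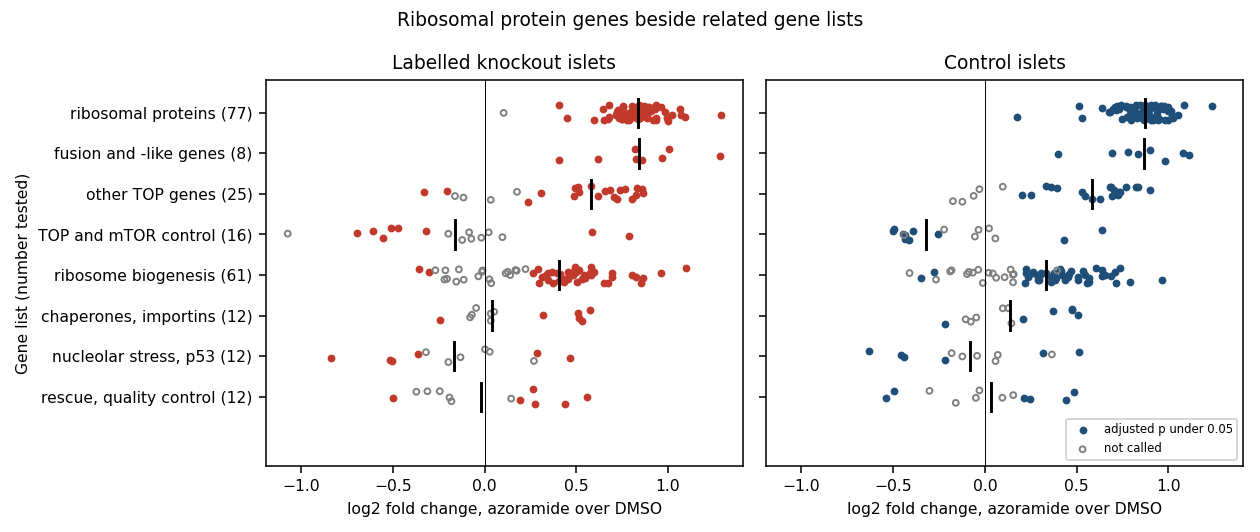
Log2 fold change of azoramide over DMSO for the genes of each list (rows; number tested in parentheses) in labelled knockout islets (left) and control islets (right); filled points passed an adjusted p of 0.05 in edgeR, open points did not, and black bars are list medians. The ribosomal protein genes are centred at 0.84 and 0.87, the fusion and -like genes at the same medians, and the other TOP genes at 0.58 in both.

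Some markers of cell types were called with azoramide too. Over all genes, 19.97% were called higher and 19.8% lower in labelled knockout islets, and 19.3% and 19.8% in control islets. No marker list was tested against those shares. Of the 8 β cell markers, 2 were called higher and 4 lower in labelled knockout islets and 3 higher and 4 lower in control islets. Their sum, which the insulin genes dominate, stood at 137395 to 172121 CPM with azoramide and 128342 to 131579 CPM with DMSO in labelled knockout islets, and at 149278 to 189938 CPM against 138293 to 140519 CPM in control islets. Summed α cell markers stood at 23555 to 25299 CPM with azoramide and 14417 to 16420 CPM with DMSO in labelled knockout islets, and at 24283 to 27672 CPM against 14319 to 15845 CPM in control islets, and 4 of the 5 were called higher in labelled knockout and 3 in control islets. Of the 9 ductal markers 8 were tested, with 3 called higher in labelled knockout and 4 in control islets, and of the 8 endothelial markers 4 were called lower in each genotype and 1 higher in control islets. Of 8 macrophage markers tested 2 were called higher in each genotype, at summed levels of 62.9 to 116 CPM with azoramide and 49.68 to 49.99 CPM with DMSO in labelled knockout islets, and 61.6 to 79.5 against 44.3 to 57.8 CPM in control islets. Acinar markers varied widely within groups, from 898 to 4891 CPM with azoramide and 479 to 2046 CPM with DMSO in labelled knockout islets, and from 1496 to 3985 against 766 to 4586 CPM in control islets, and none of the 11 tested was called. With their mean as a covariate, the member median was 0.82 in labelled knockout and 0.86 in control islets. Of the 3 δ cell markers 1 was called higher in each genotype, of the 2 γ cell markers 1 in labelled knockout and 2 in control islets, and of the 5 erythroid markers 4 in control islets, at a sum of 22.7 to 39.4 CPM with azoramide against 12.04 to 16.5 CPM with DMSO. The part of α, β, δ, γ, erythroid, ductal, endothelial, macrophage and adipocyte cells in the result was not tested. Of the 8 stellate cell and fibroblast markers tested 1 was called lower in labelled knockout islets, and 1 higher and 2 lower in control islets, and of the 5 Schwann cell markers tested 1 was called higher in labelled knockout islets. Of the 5 adipocyte markers 1 was tested, and it was called higher in labelled knockout islets (0.44) and not called in control islets (0.18). Summed adipocyte markers stood at 16.0 to 17.4 CPM with azoramide and 10.2 to 14.4 CPM with DMSO in labelled knockout islets, and at 19.8 to 21.2 CPM against 16.4 to 20.1 CPM in control islets. Of the 8 lymphocyte markers 1 was tested and was not called, and their sum was at most 1.89 CPM in any library. The lymphocyte marker Cd8a and the adipocyte marker Cfd were at 0 in all libraries.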

How the data were processed

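The deposited values were whole-number read counts per gene and library, which the authors made from DNBSEQ-T7 reads. STAR 2.7.2a, mm10 and DESeq2 are named, without roles, in the submitters' processing notes, and the counting tool, its annotation and its handling of strand were not given in the sources used here. Members and lists were chosen with earlier results of these data known. Counts were fitted in R 4.3.3 with edgeR 4.0.16 (TMM, filterByExpr, robust quasi-likelihood test, 4 group means over all 11 libraries), and p-values were adjusted by Benjamini-Hochberg over all 15093 genes tested, with a threshold of 0.05. DESeq2 1.42.0, other scalings, length and GC offsets, a replicate block and fits without single libraries were alternatives, and the code was tested on simulated data. GENCODE M21 (GRCm38) gave lengths and coordinates, and RefSeq (GRCm38.p6) the promoters.

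The text names the 6 members with the largest and the 6 with the smallest change per azoramide comparison, those not called, the 4 of smallest p per genotype comparison, 22 members of known role, and the 4 genes of smallest p per related list. Some genes that these rules name are not reported here. Cdkn1a, Eef2, Eif3f, Eif4ebp1, Ipo9, Mdm4, Mdn1, Mtor, Polr1a, Rpl7l1, Rpl22l1, Rpl35a, Rps15a, Rps24, Rrp1b, Trp53 and Ubtf were named after their values were seen. All pairs of libraries within a group differed by more than counting noise, so none was counted as a repeat of another. Wilson intervals of shares cover counting error only, while the intervals of fold changes come from the edgeR fit and the spread between libraries.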

Additional observations from a re-analysis of the deposited data

How the results depend on the processing

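Across the alternatives, azoramide calls stayed at 75 or 76 members in labelled knockout islets and at 76 or 77 in control islets, all higher. The member median was 0.68 in labelled knockout and 0.70 in control islets with plain library totals, 0.63 and 0.65 with offsets for exon length and GC, 0.64 and 0.65 with those offsets and the replicate block, and 0.48 and 0.51 with the main transcript's length in the offset, a setting chosen after seeing the data. The log2 difference of the ribosomal share was 0.70 in labelled knockout and 0.71 in control islets without mitochondrially encoded genes, and 0.68 and 0.72 without hormone genes. Over all genes, the offsets for exon length lowered the calls to 2193 higher and 1677 lower in labelled knockout and to 2153 and 1460 in control islets. With the main transcript's length they were 1857 and 1357 in labelled knockout, and 1838 and 1118 in control islets. The cause was not tested.

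Leaving out 1 library at a time gave member medians of 0.82 to 0.85 in labelled knockout and 0.84 to 0.91 in control islets, -0.13 to -0.10 between genotypes with azoramide, -0.11 to -0.04 with DMSO and -0.06 to 0.01 for the interaction. Between genotypes 1 member was called with azoramide when both libraries that stood furthest apart were left out, where 49 of all genes were called higher and 35 lower. With the main transcript's length in the offset, the member median between genotypes was -0.069 with azoramide and -0.020 with DMSO. The value of Rplp2 turned to -0.052 in labelled knockout islets with plain library totals, and to -0.14 in labelled knockout and -0.081 in control islets with the main transcript's length. Rps9 was not called in labelled knockout islets under that last setting (0.11). Calls among the mTOR control genes in control islets were 5 in place of 10 with either offset, and calls among the chaperones and importins there 3 in place of 6. Calls among p53 targets in control islets were 1 in place of 6 with the main transcript's length, and among rescue genes in labelled knockout islets 3 in place of 6 without DMSO library 2.

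Same-numbered libraries were not treated as pairs in the main fit. Their deviations from the group means correlated at 0.198, 0.270 and 0.052 in control islets and at 0.156 and -0.422 in labelled knockout islets. Deviations of the 2 labelled knockout DMSO libraries mirror each other by construction, so the last 2 values are not separate checks. Among the control DMSO libraries, each control azoramide library correlated best with its own number. Azoramide libraries labelled knockout 3 and control 1, which share neither number nor genotype, correlated at 0.460. With the replicate block, which joins equal numbers across genotypes, 76 members were called in labelled knockout and 77 in control islets, with medians of 0.85 and 0.87, and no member changed its call. A block within genotype, added to the planned settings, also gave 76 and 77 called, with medians of 0.85 and 0.87.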
